A study of Mus musculus with 6 samples.

Results

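The level of 9 genes was examined in RNA immunoprecipitation sequencing (RIP-seq) of mouse cerebellar granule cells (GCs), namely the Hedgehog pathway genes Ptch1, Smo, Boc, Hhip, Sufu, Gli1, Gli2 and Gli3, and Mycn. They were chosen by name and matched by symbol, and all 9 were among the 52550 gene IDs of the table. Of these, 8 reached a mean of 1 FPKM over the libraries and were among the 11057 genes tested. Hhip, below that level, is given by its values. The 3 groups were YTHDF2 RIP, YTHDF1 RIP and input, with replicates 1 and 2 each. In all of them the RNA came from GCs of wildtype (WT) C57BL/6 mice at postnatal day 8, with no allele or treatment. An antibody against YTHDF2 or YTHDF1 pulled down the RNA of the RIP groups, and input is the RNA of the unselected lysate. The question was which RNAs each protein carries in these cells. A library from a nonspecific antibody was not analysed here. Whether the replicates came from separate mice or cultures is not in the labels, and the spread behind every p-value is that between libraries, which could be technical.

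Hedgehog signaling is the main signal for division of GC precursors in the early postnatal cerebellum. Purkinje cells secrete the ligand Sonic hedgehog, which binds Ptch1 on the precursor and relieves its inhibition of Smo, so that Gli transcription factors escape Sufu and turn on target genes such as Gli1, Ptch1 and Mycn. The proteins YTHDF1 and YTHDF2 are found in the cytoplasm and bind mRNA carrying N6-methyladenosine (m6A), a base modification that is often placed in the sequence GGACU, with YTHDF1 known for promoting translation and YTHDF2 for promoting decay of the bound mRNA.

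The letters GGACT, the DNA form of that sequence, were searched on the sense strand of the longest coding transcript of each gene in the mouse GENCODE annotation on GRCm38. The occurrence nearest to the stop codon is shown in capitals with its flanks for 5 genes, since m6A is often found near stop codons. Ptch1, Gli1, Gli2 and Mycn are shown because they were higher in the YTHDF2 RIP, and Smo because its values were close to input.

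Ptch1: gtgagaggagGGACTcaaaggtgga

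Gli1: acactcagctGGACTttgtggctat

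Gli2: ctagcaccgtGGACTcccagctcct

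Mycn: gaacacgctcGGACTtgctaaacgt

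Smo: atgcagactcGGACTtctgagcctg

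The Ptch1 stretch lies at chr13:63511594-63511618 on the minus strand, in coding sequence 72 bases before the stop codon, counted between the A of GGACT and the middle base of the stop codon. The Gli1 stretch lies at chr10:127330213-127330237 on the minus strand, 177 bases before the stop codon, and the Gli2 stretch at chr1:118836032-118836056 on the minus strand, 258 bases before it. The Mycn stretch lies at chr12:12937002-12937026 on the minus strand, 7 bases before the stop codon. The Smo stretch, at chr6:29760266-29760290 on the plus strand, lies 6 bases before the stop codon, so that Mycn and Smo carried the letters at nearly the same place. All genes but Hhip, 8 of 9, had the letters within 500 bases of the stop codon, as did 66.4% of 9814 tested protein-coding genes. A match describes the sequence and does not show a modified base.

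Between 9503 and 12627 genes reached 1 FPKM in a library. Mitochondrially encoded genes held 0.0892% to 3.68% of the summed FPKM in the 4 RIP libraries and 18% to 18.4% in the input libraries, and FPKM divides by the whole library. Input replicates correlated across genes at 0.949, and those of the YTHDF2 RIP and the YTHDF1 RIP at 0.823 and 0.798 (Pearson's r of log2 values, across genes, which are not independent of each other). Markers of GCs were present in every library, with Neurod1 at 69.5 to 318 FPKM and Zic1 at 71.9 to 223 FPKM, while Gabra6, a marker of mature GCs, stayed at 0 to 0.684 FPKM. The input also held markers of other cell types, such as those of astrocytes and Bergmann glia, which summed to 294 to 317 FPKM over 10 genes, and those of the oligodendrocyte lineage, with 66.2 to 92.3 FPKM over 8 genes.

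In the unselected RNA, Smo, Boc and Mycn had the highest means among the 9 genes and Gli1, Gli3 and Hhip the lowest. Smo had 7.73 ± 1.69 FPKM in input and Boc 7.25 ± 0.0562 FPKM (SD, n = 2 each), followed by Mycn with 5.60 ± 5.03 FPKM. The replicates of these 3 overlapped, and Mycn was above Smo and Boc in input replicate 1. Gli2, Sufu and Ptch1 lay together at 4.47, 4.32 and 4.22 FPKM, with overlapping replicates. Gli1 (1.99 ± 0.107 FPKM) was above Gli3 (1.72 ± 0.0150 FPKM) in both replicates, and Hhip was lowest at 0.573 ± 0.352 FPKM. The order was different in the RIPs. In the YTHDF2 RIP, Mycn, Gli2 and Ptch1 led at 35.1, 24.6 and 21.1 FPKM with overlapping replicates, ahead of Boc at 15.7 and Sufu at 13.9 FPKM, and Smo was sixth at 9.41 FPKM, below Sufu in both replicates. Mycn also led in the YTHDF1 RIP at 25.02 FPKM, ahead of Boc at 16.3, Ptch1 at 13.5, Gli2 at 12.4 and Smo at 9.36 FPKM, with overlapping replicates between each of these and the next. Hhip was last in both RIPs.

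**Figure D1:**
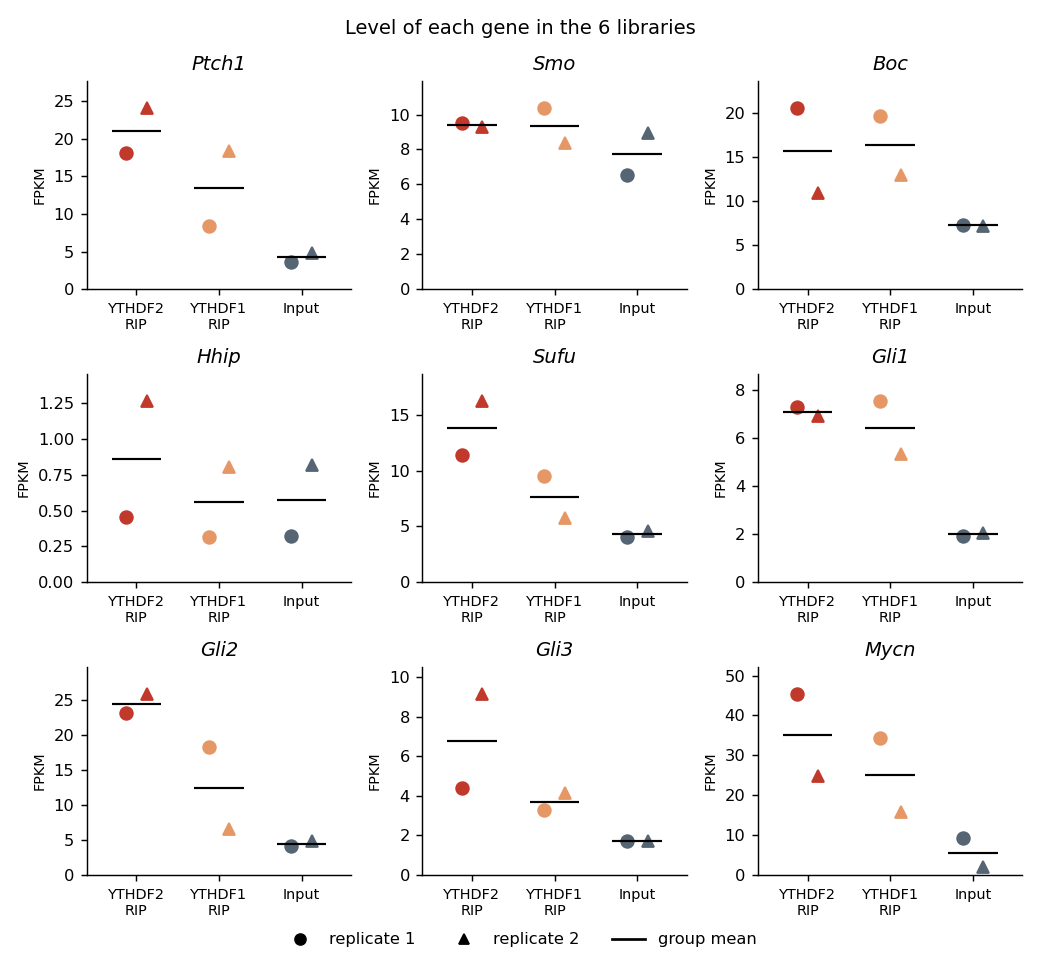
FPKM (linear axis starting at 0, with its own scale per gene) of the 9 genes in each of the 6 libraries, with YTHDF2 RIP, YTHDF1 RIP and input from left to right, circles for replicate 1, triangles for replicate 2 and a line for the group mean. Both YTHDF2 RIP libraries lie above both input libraries for all genes but Hhip, and the 2 input libraries of Mycn lie far apart, at 9.16 and 2.05 FPKM.

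Higher in the YTHDF2 RIP than in input were 6 of the 8 tested genes, namely Mycn, Gli2, Ptch1, Sufu, Gli3 and Gli1, by log2 changes of 1.44 to 2.64. Boc and Smo did not pass the test. For comparison, 1313 of the 11057 tested genes, or 11.9%, were higher in this RIP and 736, or 6.66%, were lower (limma on log2(FPKM + 1), Benjamini-Hochberg adjusted p under 0.05 over all tested genes). The median log2 change was 1.45 over the 8 genes and 0.26 over all tested genes. Log2 changes are differences of log2(FPKM + 1), so that the added 1 makes those of weakly expressed genes too small. A ratio of mean FPKM over 2 was found for 7 of the 9 genes, all 7 of them tested, against 34.5% of tested genes. The study called a target at a fold change over 2. Such a ratio of means was found for 3812 tested genes in this RIP and for 2579 in the YTHDF1 RIP. These are far more than the study listed for either protein, so this ratio does not reproduce its calls. Both YTHDF2 RIP libraries were above both input libraries for all 8, as for 41.5% of tested genes. The 6 calls depended on single libraries. None passed without input replicate 1, without input replicate 2 or without YTHDF2 RIP replicate 2, and 4 passed without YTHDF2 RIP replicate 1, with Gli1 and Mycn lost, while all 8 changes stayed above 0. With median-of-ratios scaling 3 passed, where 978 of all tested genes were higher. Without the filter on low values none did, nor did any other gene. Over all tested genes, nearly all calls were also lost without either input library. Fewer tested genes were higher without YTHDF2 RIP replicate 2, and more were higher without YTHDF2 RIP replicate 1. Where a library was left out, the lone library of its group was assumed to vary like the others. The RIPs and input are both RNA of GC lysates, so their marker sums compare the RNA recovered and do not count cells. The markers of postmitotic GCs summed to 662 to 872 FPKM in the YTHDF2 RIP, to 350 to 515 FPKM in the YTHDF1 RIP and to 360 to 469 FPKM in input over 10 genes, of which only Gabra6 was under 1 FPKM. Those of GABAergic interneurons, over 7 genes, summed to 18.7 to 27.4 FPKM in the YTHDF2 RIP, where Sst was at 0 in both libraries, to 13.97 to 13.99 FPKM in the YTHDF1 RIP and to 11.7 to 11.9 FPKM in input. The markers of astrocytes and Bergmann glia summed to 208 to 270 FPKM in the YTHDF2 RIP and 148 to 197 FPKM in the YTHDF1 RIP, below input, though 5 of these 10 had a YTHDF2 change above 0 and none passed. The oligodendrocyte markers summed to 80.6 to 84.8 FPKM in the YTHDF2 RIP and 49.9 to 67.4 FPKM in the YTHDF1 RIP. Of these 8, 2 were higher in the YTHDF2 RIP, Olig1 (2.09) and Cspg4 (1.21), with a list median of 1.05. Cspg4 averaged 0.293 FPKM in input and reached the filter only through the RIP libraries, so its call is partly set by the filter. Of 9 tested markers of postmitotic GCs, Cntn2 (2.55) was also higher in the YTHDF2 RIP, as was Slc32a1 (1.71) of 5 tested interneuron markers. Tmem119 (1.41) of 6 tested microglia markers was higher too, from 0.213 FPKM in input, so the limit given for Cspg4 holds for it. No marker was lower in this RIP by limma. The part of other cells in these results was not tested.

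Ptch1, the receptor that binds Sonic hedgehog and holds Smo inactive (chromosome 13, 63508328 to 63573598, minus strand), was among the genes that rose most. It had 18.1 and 24.1 FPKM in replicates 1 and 2 of the YTHDF2 RIP, 8.47 and 18.4 FPKM in the YTHDF1 RIP, and 3.65 and 4.79 FPKM in input. All 4 RIP libraries were above both input libraries, while the RIPs overlapped with each other. Against input, its log2 change was 2.08 in the YTHDF2 RIP (SE 0.46, adjusted p = 0.0269 by limma, higher in 2 of 2 replicates), above 96.2% of tested genes. With RIP and input paired by replicate number, the ratios were 4.97 and 5.02. That pairing did not show in the values over all tested genes, so the closeness of the ratios does not measure reproducibility. The change in the YTHDF1 RIP was 1.39 (SE 0.46, adjusted p = 0.118 by limma, and 0.0544 with the replicate number as a block). The study listed Ptch1 as a YTHDF1 target from these same libraries, so its value here is not independent evidence of that.

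Smo, the membrane protein that Ptch1 inhibits and that carries the signal into the cell (chromosome 6, 29735503 to 29761365, plus strand), stood out by its small change. It had 9.54 and 9.27 FPKM in the YTHDF2 RIP, 10.4 and 8.35 FPKM in the YTHDF1 RIP, and 6.53 and 8.92 FPKM in input. The YTHDF2 RIP libraries were just above both input libraries, and the YTHDF1 RIP libraries overlapped with them. Its log2 change was 0.27 in the YTHDF2 RIP, with a 95% interval of -0.59 to 1.12 (adjusted p = 0.625 by limma), and 0.25 in the YTHDF1 RIP, with an interval of -0.60 to 1.11. The YTHDF2 change was at the 50.4th percentile of tested genes. With median-of-ratios scaling the YTHDF2 change of Smo was -0.04. These intervals still allow a change of about the size seen for Boc.

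Boc, a co-receptor that helps Sonic hedgehog reach Ptch1 (chromosome 16, 44485049 to 44558897, minus strand), was similar in both RIPs. It had 20.6 and 10.9 FPKM in the YTHDF2 RIP, 19.7 and 12.97 FPKM in the YTHDF1 RIP, and 7.28 and 7.21 FPKM in input. Both RIPs were above input in both replicates, with replicate 1 the higher one in each RIP. Its log2 change was 0.96 in the YTHDF2 RIP (SE 0.45, adjusted p = 0.162 by limma) and 1.05 in the YTHDF1 RIP (SE 0.45, adjusted p = 0.187 by limma). Boc passed in the YTHDF2 RIP under 1 of 15 alternative settings, the scaling of each library to the same sum.

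Hhip, a membrane protein that binds Hedgehog ligands and keeps them from Ptch1 (chromosome 8, 79965851 to 80058006, minus strand), was barely detected in any library. It had 0.455 and 1.27 FPKM in the YTHDF2 RIP, 0.315 and 0.807 FPKM in the YTHDF1 RIP, and 0.324 and 0.822 FPKM in input. Replicate 2 was above replicate 1 in each group and all 3 groups overlapped.

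Sufu, the cytoplasmic protein that holds Gli factors back (chromosome 19, 46396896 to 46488804, plus strand), was higher in the YTHDF2 RIP. It had 11.4 and 16.3 FPKM there, 9.57 and 5.73 FPKM in the YTHDF1 RIP, and 4.05 and 4.59 FPKM in input. The 3 groups did not overlap. The log2 change was 1.46 in the YTHDF2 RIP (SE 0.40, adjusted p = 0.0433 by limma, higher in 2 of 2 replicates) and 0.67 in the YTHDF1 RIP (SE 0.40, adjusted p = 0.318 by limma).

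The 3 Gli transcription factors were all higher in the YTHDF2 RIP, and Gli2 had the widest distance from input. Gli2, the main activator of the pathway (chromosome 1, 118834132 to 119053619, minus strand), had 23.2 and 25.9 FPKM in the YTHDF2 RIP, 18.3 and 6.51 FPKM in the YTHDF1 RIP, and 4.11 and 4.83 FPKM in input. Its YTHDF2 libraries were close to each other and above all others, and its YTHDF1 libraries differed more from each other than those of the YTHDF2 RIP or of input. The log2 change was 2.23 in the YTHDF2 RIP (SE 0.50, adjusted p = 0.0282 by limma, higher in 2 of 2 replicates). Its ratios were 5.63 and 5.37 with input paired by replicate number, a pairing that did not show in the values. The YTHDF1 RIP gave 1.14 (SE 0.50, adjusted p = 0.198 by limma), with replicate ratios of 4.45 and 1.35.

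Gli1, itself a target of the pathway and often used as its readout (chromosome 10, 127329882 to 127341974, minus strand), was about equal in the RIPs. It had 7.31 and 6.91 FPKM in the YTHDF2 RIP, 7.55 and 5.34 FPKM in the YTHDF1 RIP, and 1.91 and 2.06 FPKM in input. Every RIP library was above every input library, and the RIPs overlapped. The log2 change was 1.44 in the YTHDF2 RIP (SE 0.34, adjusted p = 0.0298 by limma, higher in 2 of 2 replicates). The YTHDF1 RIP gave 1.30 (SE 0.34, higher in 2 of 2 replicates), which missed the threshold (adjusted p = 0.0755 by limma) and passed it with the replicate number as a block (adjusted p = 0.0417).

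Gli3, which acts mostly as a repressor when the pathway is off (chromosome 13, 15463235 to 15730026, plus strand), had the lowest mean of the Gli genes in each group. It had 4.39 and 9.16 FPKM in the YTHDF2 RIP, 3.29 and 4.12 FPKM in the YTHDF1 RIP, and 1.71 and 1.73 FPKM in input. The 3 groups did not overlap, and replicate 2 of the YTHDF2 RIP was far above the rest. The log2 change was 1.44 in the YTHDF2 RIP (SE 0.39, adjusted p = 0.0423 by limma, higher in 2 of 2 replicates) and 0.79 in the YTHDF1 RIP (SE 0.39, adjusted p = 0.241 by limma). Exons of Gli1 share 265 bases with the antisense gene Gm47200 and 62 bases with Arhgap9, and those of Gli3 share 188 bases with Gm6556. These neighbors averaged at most 0.511 FPKM over the libraries, and the sources used here do not give whether counting used strand.

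Mycn, the transcription factor through which the pathway drives precursor division (chromosome 12, 12936093 to 12941914, minus strand), had the largest log2 change of the 8 genes in both RIPs. It had 45.4 and 24.8 FPKM in the YTHDF2 RIP, 34.2 and 15.8 FPKM in the YTHDF1 RIP, and 9.16 and 2.05 FPKM in input. Both RIPs were above input and overlapped with each other, and replicate 1 was the higher one in every group. The log2 change was 2.64 in the YTHDF2 RIP (SE 0.68, adjusted p = 0.0380 by limma, higher in 2 of 2 replicates), above 98.7% of tested genes. It was 2.13 in the YTHDF1 RIP (SE 0.68, higher in 2 of 2 replicates), which missed the threshold (adjusted p = 0.110 by limma) and passed it with the replicate number as a block (adjusted p = 0.0132). The YTHDF2 call was lost with nuclear coding scaling (adjusted p = 0.0593) and with median-of-ratios scaling (adjusted p = 0.0750). The size of the YTHDF2 change depended on which input library was used. Without input replicate 1 the YTHDF2 change was 3.51, and without input replicate 2 it was 1.77. The study listed Mycn as a YTHDF2 target from these libraries, so its rise here is not independent evidence of that.

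**Figure D2:**
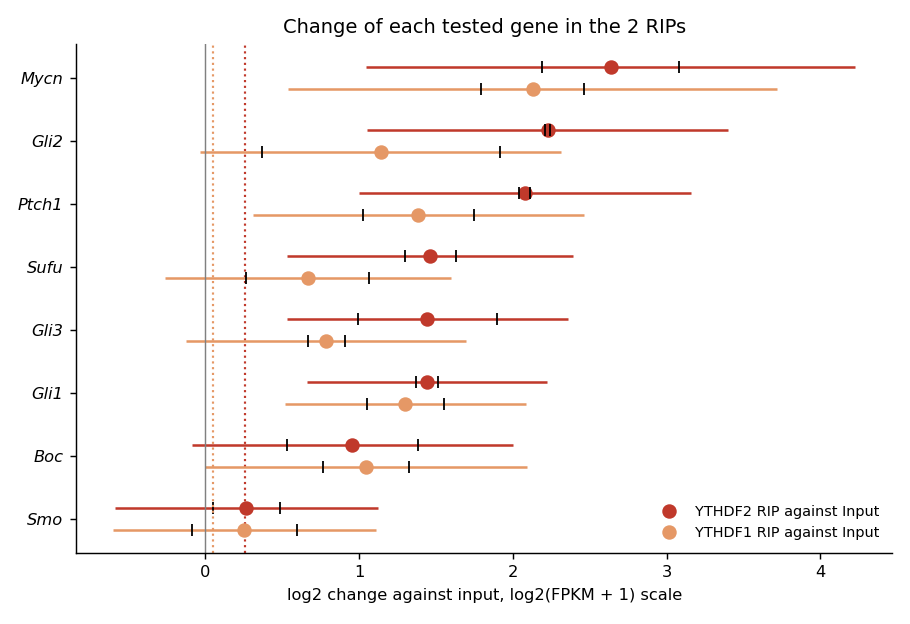
Log2 change against input of the 8 tested genes, on the log2(FPKM + 1) scale (x axis), in the YTHDF2 RIP (dark, upper of each pair) and the YTHDF1 RIP (light, lower of each pair), with 95% intervals from limma as lines, the 2 replicate pairs as ticks and the median of all tested genes in each RIP as dotted lines. The YTHDF2 changes run between 0.27 for Smo and 2.64 for Mycn. The replicate ticks of Ptch1 and Gli2 nearly coincide in the YTHDF2 RIP, but ticks depend on pairing by replicate number, which did not show in the values.

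In the YTHDF1 RIP, none of the 8 genes passed against input by limma, where 69 of the 11057 tested genes, or 0.624%, were higher and 215, or 1.94%, were lower. All 8 changes were above 0, with a median of 1.09 against 0.05 over all tested genes. At an unadjusted p under 0.05, Gli1, Ptch1, Boc and Mycn were higher, and so were 1455 of all tested genes. With the replicate number as a block, Gli1 and Mycn passed, against 571 tested genes that were higher, or 5.16%, and 7.79% that were lower. A ratio of mean FPKM over 2 was found for 6 of the 9 genes, against 23.3% of tested genes, and without YTHDF1 RIP replicate 1 there were 4. Both YTHDF1 RIP libraries were above both input libraries for 7 of the 8, all but Smo, as for 33.8% of tested genes.

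Set against each other, the RIPs could not be told apart for any of the 8 genes. None differed by limma between the YTHDF2 RIP and the YTHDF1 RIP, with adjusted p of 0.864 or more and no unadjusted p under 0.05. One of the 11057 tested genes, or 0.00904%, was higher in the YTHDF2 RIP and none was lower. The largest difference was that of Gli2, with a log2 change of 1.08 and a 95% interval of -0.09 to 2.26, followed by Sufu with 0.80 (-0.13 to 1.73), Ptch1 with 0.69 (-0.39 to 1.77) and Gli3 with 0.66 (-0.25 to 1.57). For Gli2, Gli3 and Sufu, both YTHDF2 RIP libraries were above both YTHDF1 RIP libraries, as for 21.6% of tested genes. Mycn differed by 0.51 (-1.08 to 2.10), Gli1 by 0.14 (-0.64 to 0.92), Smo by 0.01 (-0.84 to 0.87) and Boc by -0.09 (-1.13 to 0.96). The sign of the difference turned under at least 1 alternative for Mycn, Gli1, Smo and Boc. The intervals are wide, so passing in the YTHDF2 RIP and not in the YTHDF1 RIP does not show that a gene differed between the antibodies. Both RIP comparisons also share the same input libraries.

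Other genes of the pathway were read from 4 lists. For comparison, 11.9% of all tested genes were higher in the YTHDF2 RIP and 6.66% were lower. Of 6 tested genes among 12 for ligands, their release and co-receptors, 3 were higher in the YTHDF2 RIP and none was lower. Gas1, a membrane-anchored co-receptor of Ptch1 like Boc, had 12.8 and 7.71 FPKM in the YTHDF2 RIP, 9.81 and 4.35 FPKM in the YTHDF1 RIP, and 2.29 and 2.41 FPKM in input, with a YTHDF2 change of 1.71 (adjusted p = 0.0393 by limma). Disp2, a relative of the ligand release protein Disp1, changed by 1.85 in the YTHDF2 RIP (adjusted p = 0.0316). The median of the 6 was 1.04. The ligand gene Shh, which Purkinje cells express, stayed at 0.123 to 0.365 FPKM in all libraries, and Cdon, the paralog of Boc, at 0.110 to 0.709 FPKM, so neither was tested. None of the 6 passed in the YTHDF1 RIP by limma, with changes of 1.07 for Disp2 and 1.18 for Gas1, both at an unadjusted p under 0.05.

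Of 28 tested genes among 32 for signal transduction and the primary cilium, 4 were higher in the YTHDF2 RIP and none was lower, with a median of 0.55. This was near the 11.9% of all tested genes that were higher. The 4 were regulators of Gli processing or of the cilium. Csnk1d, a casein kinase, had 58.2 and 65.2 FPKM in the YTHDF2 RIP, 38.1 and 40.8 FPKM in the YTHDF1 RIP, and 6.42 and 5.88 FPKM in input. It was the one listed gene to pass in both RIPs, with log2 changes of 3.13 (adjusted p = 0.0144 by limma) in the YTHDF2 RIP and 2.5002 (adjusted p = 0.0360) in the YTHDF1 RIP. Spop, an adaptor of a ubiquitin ligase that targets Gli2 and Gli3, had 72.5 and 217 FPKM in the YTHDF2 RIP, 13.1 and 58.8 FPKM in the YTHDF1 RIP, and 15.8 and 17.1 FPKM in input, with a YTHDF2 change of 2.86 (adjusted p = 0.0459). Dyrk2, a protein kinase, changed by 1.99 (adjusted p = 0.0283), and Gpr161, a ciliary receptor that restrains the pathway, by 1.56 (adjusted p = 0.0358) in the YTHDF2 RIP. With the replicate number as a block, 8 of the 28 were higher and 2 lower, where 19.7% of all tested genes were higher and 10.6% lower, and in the YTHDF1 RIP 1 was higher and 1 lower.

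Of 12 proliferation genes of GC precursors, 1 was higher in the YTHDF2 RIP and 1 was lower, with a median of 0.73. These counts were near the shares of all tested genes, 11.9% higher and 6.66% lower. E2f1, a transcription factor of cell cycle entry, had 102 and 171 FPKM in the YTHDF2 RIP, 19.5 and 63.6 FPKM in the YTHDF1 RIP, and 8.44 and 10.2 FPKM in input, with a YTHDF2 change of 3.70 (adjusted p = 0.0161 by limma). This exceeded the change of Mycn. Igf2, a growth factor, had 1.11 and 1.72 FPKM in the YTHDF2 RIP, 0.745 and 2.01 FPKM in the YTHDF1 RIP, and 7.10 and 5.19 FPKM in input, and fell by 1.56 on the log2 scale in the YTHDF2 RIP (adjusted p = 0.0326). With the replicate number as a block, 4 of the 12 were higher and 1 lower in the YTHDF2 RIP (19.7% and 10.6% of all tested genes), and 1 was higher and 1 lower in the YTHDF1 RIP, against none without it. Markers of proliferating precursors, over 8 genes, summed to 80.1 to 135 FPKM in the YTHDF2 RIP, 54.3 to 71.9 FPKM in the YTHDF1 RIP and 105 to 129 FPKM in input, and none of the 8 passed in either RIP by limma. With the replicate number as a block, Atoh1 was higher (adjusted p = 0.0381) and Top2a and Pcna were lower (adjusted p = 0.0319 and 0.0236) in the YTHDF2 RIP.

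Of 18 tested genes of the MYC network, 4 were higher in the YTHDF2 RIP and none was lower, with a median of 0.63, against 11.9% and 6.66% of all tested genes. With the replicate number as a block, Trrap also passed (log2 change 1.24, adjusted p = 0.0392). The paralogs of Mycn differed in their values. Mycl had 50.5 and 40.0 FPKM in the YTHDF2 RIP, 38.4 and 7.16 FPKM in the YTHDF1 RIP, and 4.93 and 2.14 FPKM in input, with a YTHDF2 change of 3.41 (adjusted p = 0.0252 by limma). Myc had 4.46 and 2.27 FPKM in the YTHDF2 RIP, 3.94 and 1.59 FPKM in the YTHDF1 RIP, and 1.36 and 2.25 FPKM in input, with a change of 0.61 (95% interval -0.41 to 1.64, adjusted p = 0.343). Max, the partner that MYC proteins need to bind DNA, changed by 1.82 (adjusted p = 0.0492), Mnt, a repressor that also pairs with Max, by 1.52 (adjusted p = 0.0263), and Mlxip, a related factor that pairs with Mlx, by 2.199 (adjusted p = 0.0367). Of the 18, none passed in the YTHDF1 RIP by limma, and with the replicate number as a block 1 did. With the replicate block and correction for GC content and transcript length, the calls of Mnt (0.34), Disp2 (0.84), Gas1 (0.91) and Gpr161 (0.96) were lost in the YTHDF2 RIP, and none of the ligand and co-receptor list passed. None of the calls in the 4 lists was left without input replicate 1 or without input replicate 2, and without YTHDF2 RIP replicate 2 those of Csnk1d and E2f1 in the YTHDF2 RIP remained. That of Csnk1d in the YTHDF1 RIP was also lost without either replicate of the YTHDF1 RIP. Calls of all tested genes were nearly all lost too without an input library, and in the YTHDF1 RIP without either of its replicates.

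**Figure D3:**
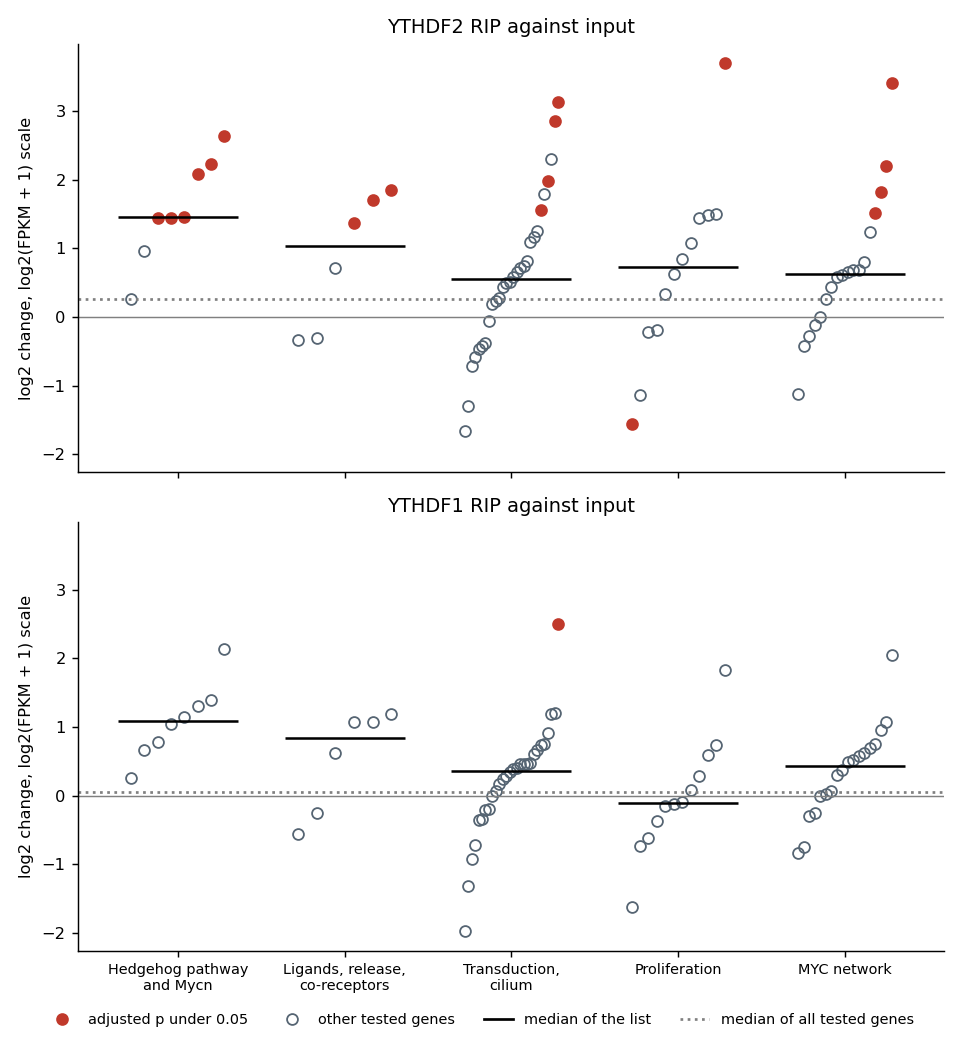
Log2 change against input on the log2(FPKM + 1) scale (y axis) of the 8 tested Hedgehog pathway and Mycn genes and of the tested genes of 4 further lists (x axis), in the YTHDF2 RIP (upper panel) and the YTHDF1 RIP (lower panel), with filled points for genes with an adjusted p under 0.05 by limma, black lines for list medians and a dotted line for the median of all tested genes. In the YTHDF2 RIP the list medians lie between 0.55 and 1.45, against 0.26 for all tested genes, and the one filled point below 0 is Igf2.

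The genes whose pattern over the 6 libraries was most like that of a member were found among 9815 tested protein-coding genes, by the Euclidean distance between log2(FPKM + 1) values after subtraction of the input mean. Nearest to Ptch1 were Rgs8, a regulator of G protein signaling (distance 0.419), and Syt2, a synaptotagmin (0.423). Nearest to Gli1 were Atg9a, a membrane protein of autophagy (0.154), and Grik5, a kainate receptor subunit (0.176). Mycn had no neighbor as close, with Trim32, a ubiquitin ligase, at 0.889 and the retinoid receptor gene Rxra at 1.06.

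The transcripts of these genes differed in features that the choice by name did not use. Ptch1 had 17 occurrences of GGACT in 7725 bases, or 2.201 per 1000 bases, which was above 92.8% of 9815 tested protein-coding genes, whose median was 1.04. Smo, with little change in either RIP, was nearly as dense, with 8 occurrences or 2.12 per 1000 bases. Sufu had 1.99, Gli2 1.66, Gli3 1.59, Boc 1.35 and Gli1 1.23 occurrences per 1000 bases. Mycn, with the largest change, had 2 occurrences in 2674 bases, or 0.748 per 1000, which is below the median, and Hhip had 0.220. Of the tested protein-coding genes, 92.9% had the letters at least once. The order of the 8 genes by density was thus not their order by change.

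The 8 transcripts were mostly longer than the median and, apart from Ptch1 and Gli3, richer in G and C. The transcripts of Gli1, Smo and Gli2 held 59.0%, 57.8% and 57.5% G and C, those of Boc, Sufu and Mycn 55.9%, 55.8% and 54.8%, and those of Ptch1 and Gli3 50.2% and 48.4%, against a median of 50.2% over tested protein-coding genes. The median transcript length of those genes was 3396 bases, which all 8 exceeded except Mycn. With each library corrected for GC content and transcript length and the replicate number as a block, the median YTHDF2 change of the 8 genes was 0.73, against 0.15 over all tested genes. Over all tested genes, 1718 of 11041 were then higher, against 1313 of 11057 as reported. Of the 6 calls, 3 remained, Mycn at 2.21 (adjusted p = 0.00507 by limma), Ptch1 at 1.41 (adjusted p = 0.0194) and Gli3 at 0.94 (adjusted p = 0.0422). Gli2 stood at 1.01 (adjusted p = 0.0968), Sufu at 0.53, Gli1 at 0.36, Boc at 0.02 and Smo at -0.70. In the YTHDF1 RIP, the same correction gave a median of 0.29, and Mycn passed at 1.65 (adjusted p = 0.0381 by limma), where 416 of 11041 tested genes were higher.

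**Figure D4:**
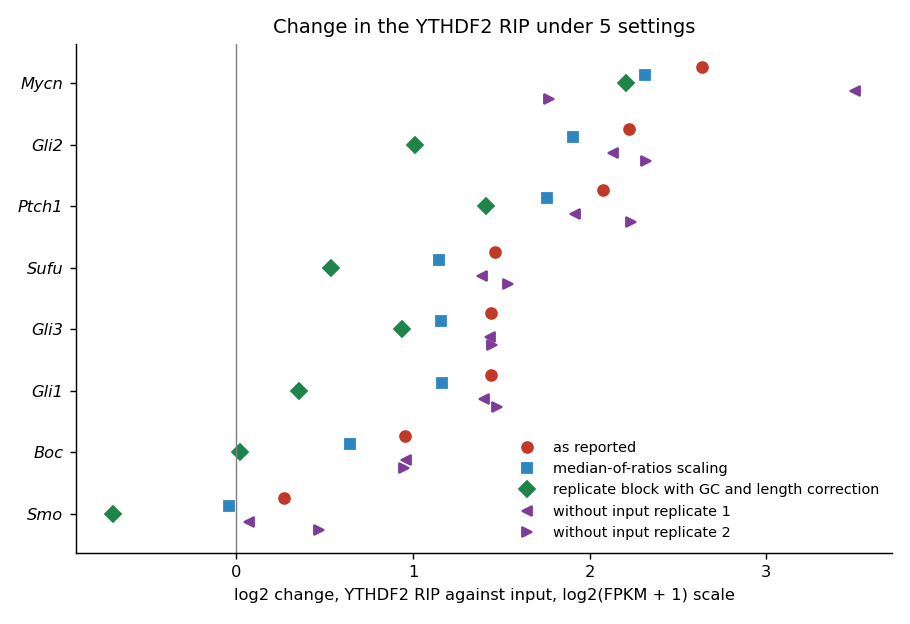
Log2 change of the 8 tested genes in the YTHDF2 RIP against input on the log2(FPKM + 1) scale (x axis) as reported (circles), with median-of-ratios scaling (squares), with GC and length correction and the replicate block (diamonds), and without either input library (triangles). All points of the 6 genes that passed lie above 0, the diamonds of Gli1, Sufu and Boc fall to 0.36, 0.53 and 0.02, and the points of Smo lie on both sides of 0.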

How the data were processed

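Per the labels and the methods of the study, lysates of GCs were incubated with antibody-coated beads and libraries were made from eluate and input RNA. The FPKM values (fragments scaled to transcript length and library) of 52550 gene IDs were deposited by the authors. The methods name STAR and Cufflinks on GRCm38, while the submitters' processing notes name Bowtie 0.12.2, mm8 and mm9, and which made the table is not settled. Gene models came from GENCODE M21. Read depth is unknown. FPKM times length of single-exon genes piled up at steps, but only 36.9% to 45.9% of low values lay within 0.1 of a whole step (20% by chance), so no count test was run.

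All 6 libraries entered 1 limma 3.58.1 fit (R 4.3.3) of log2(FPKM + 1) with an intensity trend, for 11057 genes averaging at least 1 FPKM. The threshold was a 2-sided p under 0.05 after Benjamini-Hochberg adjustment over them. The fit was run on simulated data with added changes of known size but a smaller spread than in these libraries. That run does not show how well changes like those here are detected. The series text puts input and RIP samples in each replicate, so the replicate numbers were taken to pair the libraries. Replicate differences correlated at 0.682 between the RIPs, and at -0.137 and -0.142 between input and the YTHDF2 and YTHDF1 RIP. The pairing of input with the RIPs, which blocked calls against input assume, thus did not show in the values. Blocked values stand beside the calls of the 9 genes and the 4 lists that they change. Listed genes past the threshold in either RIP against input were named, at most 6 per list, with paralogs and ligands, and the 2 nearest genes for Ptch1, Gli1 and Mycn. The values of 1 listed gene are not reported here. Alternatives were pseudocount, filter, scaling, samples fitted, block, GC and length correction, and leaving out each library. The members and lists were chosen with earlier results of these data known.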

Additional observations from a re-analysis of the deposited data

How the results depend on the processing

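Without the filter on low values (31996 genes), no gene passed in any comparison by limma, so 0 of the members passed in the YTHDF2 RIP, though 3457 genes were higher and 2101 lower there at an unadjusted p under 0.05. More genes were tested in that fit. For the YTHDF2 RIP against input, 2049 genes passed as reported, 64.1% of them higher. The share of calls that were higher was 91.0% with libraries scaled to the same sum, 42.7% with median-of-ratios scaling and 52.8% with scaling to nuclear coding genes. The median change of all tested genes was 0.79, 0.00 and 0.10 in these. Median-of-ratios scaling left 3 members past the threshold (Gli2, Gli3 and Ptch1), and the replicate block with GC and length correction left 3. Nuclear coding scaling left 5, without Mycn, and fitting only the compared groups left 5, without Gli3. Over all tested genes 978, 1718, 1191 and 1329 were higher in these settings, in this order. For the YTHDF1 RIP, 284 genes passed as reported, 24.3% of them higher. There were 0 with scaling to the same sum, 793 with median-of-ratios scaling, 604 with nuclear coding scaling (37.4% higher), 755 with only the compared groups fitted, and 266 with a pseudocount of 0.1 (44.0% higher).

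With the replicate block, 3349 genes passed in the YTHDF2 RIP and 1432 in the YTHDF1 RIP, where 2 members (Gli1 and Mycn) passed, and 2 genes passed between the RIPs. The block changed no other call of a member. With the block and GC and length correction, 893 genes and 1 member (Mycn) passed in the YTHDF1 RIP and 2 genes between the RIPs. With the input replicates crossed in the block, chosen after seeing the data, 4007 genes passed in the YTHDF2 RIP, 2239 genes and 3 members in the YTHDF1 RIP, and 2 genes between the RIPs. Between the RIPs, 1 gene passed as reported and 0 did with a pseudocount of 0.1, with scaling to the same sum or with only these groups fitted. Leaving out 1 library at a time gave 0 to 2141 genes and 0 to 5 members in the YTHDF2 RIP, 0 to 802 genes and 0 members in the YTHDF1 RIP, and 0 to 1 gene between the RIPs. The input libraries decided the YTHDF2 calls most, with 9 genes left without input replicate 1 and 0 without input replicate 2. The causes of these differences were not tested.

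No change that passed turned its direction. Against input, Smo turned to -0.043 with median-of-ratios scaling and to -0.70 with the corrected block in the YTHDF2 RIP, and in the YTHDF1 RIP the corrected block gave Smo -0.63 and Sufu -0.12. Between the RIPs, Gli1 turned to -0.11 and Smo to -0.25 with median-of-ratios scaling, to -0.089 and -0.22 with nuclear coding scaling, and Smo to -0.073 with the corrected block. Leaving out 1 library at a time gave ranges of -0.13 to 0.15 for Smo, -0.077 to 0.36 for Gli1, -0.026 to 1.04 for Mycn and -0.52 to 0.34 for Boc, none of which passed. Of 120 member values under alternatives in each comparison, 36 lost and 1 gained a call in the YTHDF2 RIP, and 6 gained one in the YTHDF1 RIP. The 13 listed genes that passed in the YTHDF2 RIP, 1 of which is not reported here, kept their direction in all 195 alternative values and passed in 131. With 2 libraries a group and no read counts, small differences were not detectable.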
